A study of Homo sapiens with 4 samples.

Results

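The cyclin-dependent kinases and cyclins that act on RNA polymerase II and on Mediator are described here in MDA-MB-231 cells, a human triple-negative breast cancer line with mesenchymal-like features. They comprise 6 kinases (CDK7, CDK8, CDK9, CDK12, CDK13 and CDK19) and 4 cyclins (CCNH, CCNT1, CCNT2 and CCNK). The 10 were chosen by function, with earlier results of these data known, and found by matching Ensembl IDs to symbols. Shares given for them beside those of all genes are thus descriptions and not tests. All 10 had 1 row each among the 20263 genes of the deposited table, and all 10 passed the filter on low counts. Cells received Rib_CA for 24 h, named in the series title as derived from ribociclib, an inhibitor of CDK4 and CDK6, or DMSO, a solvent that served as the control. The dose is not given in the labels used here, and each group has 2 libraries of messenger RNA from the 1 cell line. The series title names apoptosis through p53, and the groups were set against each other for transcript levels after treatment.

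Transcriptional CDKs phosphorylate the tail of the largest subunit of RNA polymerase II and the factors that travel with it. CDK7 with cyclin H (CCNH) and MNAT1 forms the CDK-activating kinase, which works at promoters within the general factor TFIIH. CDK9 with cyclin T1 or T2 (CCNT1, CCNT2) forms P-TEFb, which releases paused polymerase and is held inactive on the 7SK RNA particle. CDK12 and CDK13 pair with cyclin K (CCNK) and support elongation through long genes, with DNA repair genes a known class for CDK12. CDK8 and its paralog CDK19 pair with cyclin C (CCNC) in the kinase module of Mediator, the bridge between activators and polymerase. These kinases are grouped here by their action on RNA polymerase II and Mediator, though the CDK-activating kinase, as its name says, also acts on other CDKs.

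The libraries held 34774542 to 38865103 counts, and the 10 genes had between 331 and 9940 counts in a library. Mitochondrially encoded transcripts took 8.68% and 21.7% of counts in DMSO 1 and 2, against 5.79% and 3.13% in Rib_CA 1 and 2. The line's markers VIM, CD44, AXL and CAV1 lay between 242 and 4220 CPM (counts per 1000000 counts of a library, after TMM scaling) in all libraries. Of the luminal and receptor genes, ESR1, PGR and CDH1 stayed at or below 1.76 CPM, EPCAM lay at 9.50 to 12.1, GATA3 at 3.04 to 21.7 and ERBB2 at 58.0 to 87.1 CPM. PTPRC, PECAM1 and COL1A1, markers of other cell types, reached at most 8.04 CPM. The labels do not say whether the 2 libraries of a group came from separate cultures, so each p-value rests on the spread among these libraries alone, and that spread may be technical. In a bulk sample, fewer cells that express a gene and less RNA per cell cannot be told apart.

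None of the 10 genes passed the test of Rib_CA against DMSO, edgeR's quasi-likelihood test with Benjamini-Hochberg adjustment at a threshold of 0.05. Over all 13667 genes tested, 7.13% passed. DESeq2 and limma-voom also called 0 of the 10, where they called 19.9% and 6.23% of all genes. The 10 likewise had no call with other scalings, filters or replicate terms. All genes were then called at 7.69% with DESeq2's size factors, 4.3% with total counts alone, 8.18% with no filter, 11.2% with a strict filter and 8.28% without mitochondrially encoded genes. With a term for the replicate number it was 6.93%, and with the numbers crossed 14.6%. At an unadjusted p under 0.05, 3 of the 10 lay below the threshold (CDK12, CCNT1 and CCNH), where the share over all genes was 28.4%. Every gene called in the whole table differed at least 2.15-fold, and the largest difference among the 10 was 2.01-fold, for CCNK. Log2 fold changes were negative for 8 of the 10 (48.1% of all genes), with a median of -0.66 against 0.03 over all genes. In TMM-scaled CPM, both Rib_CA libraries lay below both DMSO libraries for 5 of the 10 (CCNH, CCNT1, CDK12, CDK13 and CDK8), a pattern that 28.4% of all genes showed, and none of the 10 had both Rib_CA libraries above, as 30.4% of all genes did. For CDK8 this depends on the scaling, as given below. CDK7 and CDK9 were the 2 with a positive fold change.

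**Figure D1:**
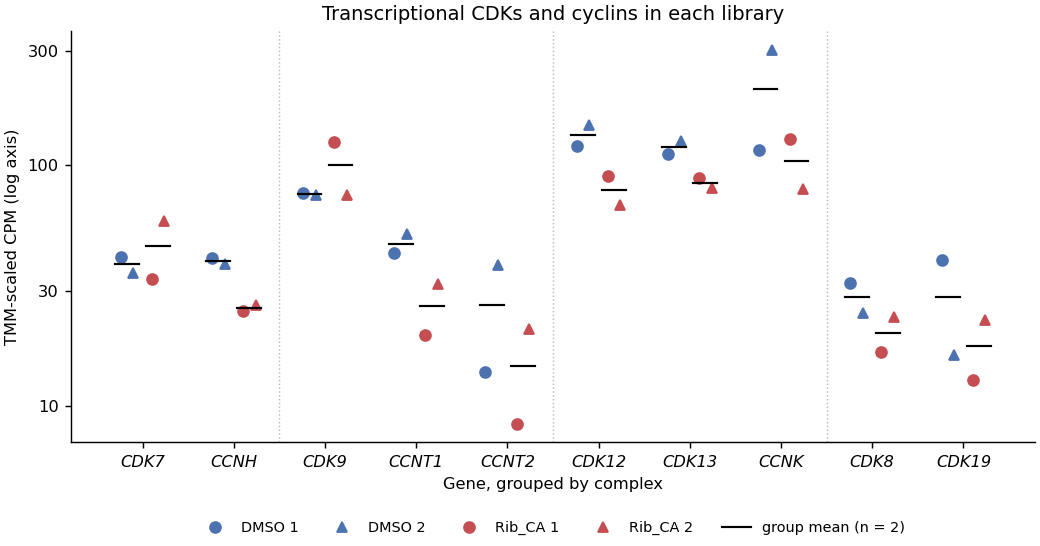
TMM-scaled CPM on a log axis for the 10 genes, 1 point per library (blue DMSO, red Rib_CA; circles replicate 1, triangles replicate 2), with group means as black lines and dotted lines between complexes. The groups are apart for CCNH, CCNT1, CDK12, CDK13 and CDK8, and a single library stands far from its partner for CCNT2, CCNK and CDK19.

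Transcript length and base composition moved with fold change across the table, and these genes are unevenly spread over both. With genes sorted into 5 bins of equal size by the length of the longest annotated transcript, the median log2 fold change was 0.42 in the shortest bin and -0.40 in the longest. CCNT1, CCNT2, CDK12, CDK13 and CDK19 lie in the longest bin, and CDK7 in the shortest. By GC content the median was -0.55 in the lowest bin, which holds CDK7, CCNH, CCNT1 and CCNT2, and -0.30 in the next, which holds CDK12, CDK13, CDK8 and CDK19. In bin 4, which holds CDK9, it was 0.33. After each library was corrected for GC content and transcript length together, the median log2 fold change of the 10 genes was -0.19. Real changes that follow base composition or length are removed with it, and no gene of the table then passed (0 of 13651, with 3396 at an unadjusted p under 0.05). None of the 10 genes was below that unadjusted level. Whether length or composition has a part in the difference was not tested.

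**Figure D2:**
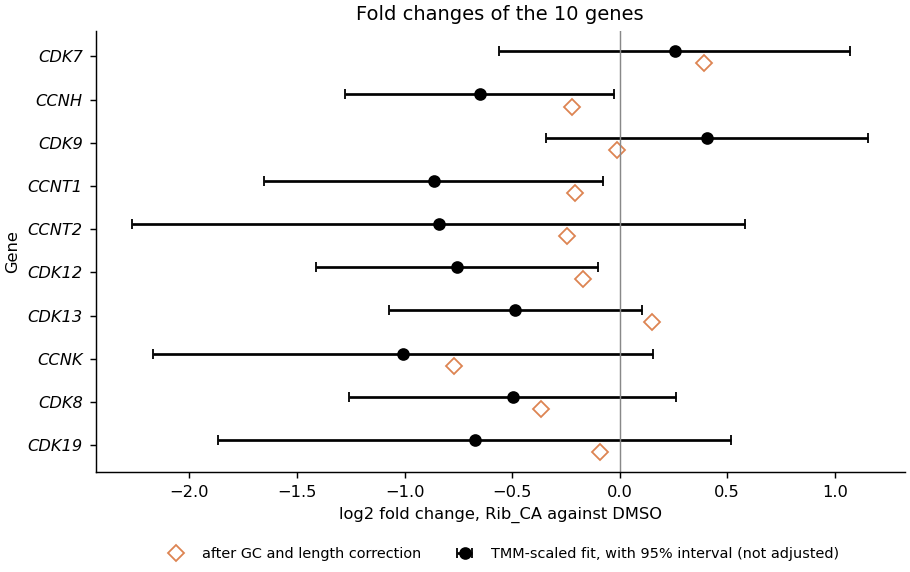
Log2 fold change of Rib_CA against DMSO for the 10 genes (black points, with 95% intervals not adjusted for the number of genes) and the value after correction for GC content and transcript length (open diamonds). The intervals of CCNH, CCNT1 and CDK12 lie below 0, and the corrected value lies closer to 0 for every gene but CDK7.

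The kinase CDK7 lies on chromosome 5 (69234795 to 69277430, plus strand; gene limits here and below are those of GENCODE release 29 on GRCh38). It was at 41.8 and 35.7 CPM in DMSO 1 and 2 and at 33.6 and 58.9 CPM in Rib_CA 1 and 2. The Rib_CA libraries lay on either side of both DMSO libraries. Its log2 fold change was 0.26 (95% interval -0.56 to 1.07; adjusted p = 0.672), and it turned to -0.21 without Rib_CA 2.

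Its partner CCNH, also on chromosome 5 (87318416 to 87413019, minus strand), had close replicates in both groups. CCNH was at 41.3 and 38.95 CPM in DMSO and at 24.8 and 26.3 CPM in Rib_CA. Libraries of a group differed by 1.06-fold, and both Rib_CA values were below both DMSO values, with a log2 fold change of -0.65 ± 0.26 (SE; 95% interval -1.28 to -0.03). It did not pass (adjusted p = 0.162), and with 1 library left out it stayed between -0.69 and -0.61. After the GC and length correction it was -0.22. CCNH shares 12.7% of its exonic bases with RASA1 on the opposite strand, a gene that was 2.71-fold lower (adjusted p = 0.0397). How strand was used in counting is not stated in the labels, so reads on the shared bases may count for either gene.

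MNAT1, the assembly factor that joins CDK7 to CCNH, was at 77.6 and 64.3 CPM in DMSO and at 33.7 and 59.8 CPM in Rib_CA. Its log2 fold change was -0.60 ± 0.34 (adjusted p = 0.299) and became -0.20 after the GC and length correction and 0.00 after correction for GC content alone. It passed without Rib_CA 2 (-1.08; adjusted p = 0.0404), and its adjusted p ranged from 0.0404 to 0.997 over the alternatives. A ratio of 2 genes within 1 library does not depend on how libraries are scaled. It still carries the trends with GC content and transcript length, and no ratio here was corrected for them. Per transcript length, CDK7 stood to MNAT1 as 0.976 and 1.01 in DMSO 1 and 2 and as 1.80 and 1.79 in Rib_CA 1 and 2. The 2 values of each group nearly coincided, and the log2 ratio was 0.86 ± 0.02 (SE) higher in Rib_CA. With 2 values a group that SE is itself uncertain, and it was the smallest among the 11 pairs compared. The exact two-sided permutation test gave p = 0.333, the lowest it can give here. The ratio of CDK7 to CCNH was 1.66 and 1.51 in DMSO and 2.22 and 3.69 in Rib_CA, likewise with all Rib_CA values above.

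None of the P-TEFb genes passed. CDK9, on chromosome 9 (127785679 to 127790787, plus strand), was at 76.6 and 75.05 CPM in DMSO and at 126 and 75.4 CPM in Rib_CA. Rib_CA 2 lay between the DMSO libraries, and Rib_CA 1 alone was high. CDK9's log2 fold change of 0.41 (95% interval -0.34 to 1.15; adjusted p = 0.435) became -0.05 without Rib_CA 1 and -0.01 after the GC and length correction.

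CCNT1, which encodes the more studied cyclin partner of CDK9 (chromosome 12, 48688458 to 48716998, minus strand), was at 43.0 and 51.6 CPM in DMSO. In Rib_CA it was at 19.7 and 32.2 CPM, below both DMSO libraries. The log2 fold change was -0.87 ± 0.33 (95% interval -1.66 to -0.08; adjusted p = 0.148), and -0.21 after correction. CCNT1 passed without Rib_CA 2, at -1.26 (adjusted p = 0.0292), a fit in which 19.5% of all genes passed. Its adjusted p ranged from 0.0292 to 0.757 over the alternatives.

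The second T cyclin gene, CCNT2 (chromosome 2, 134918235 to 134959342, plus strand), had the lowest mean of the set in both groups, though not the lowest value in DMSO 2. It was at 13.9 and 38.6 CPM in DMSO and at 8.45 and 20.8 CPM in Rib_CA. Replicates differed by 2.78-fold in DMSO, a gap wider than that of 96.8% of the genes tested, and the groups overlapped. The log2 fold change of -0.84 had a 95% interval from -2.27 to 0.58 and became 0.07 without DMSO 2.

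Within libraries, CDK9 stood to CCNT1 per transcript length as 5.04 and 4.12 in DMSO 1 and 2 and as 18.0 and 6.63 in Rib_CA 1 and 2. All Rib_CA ratios were above those of DMSO, but the 2 Rib_CA values differed more from each other than the nearer one did from DMSO. The 2 genes also differ in GC content (55.1% for CDK9, 40.8% for CCNT1) and length. After the GC and length correction their log2 fold changes were -0.01 and -0.21, from 0.41 and -0.87. The ratio of CCNT1 to CCNT2 overlapped between groups, at 3.07 and 1.33 in DMSO and 2.32 and 1.53 in Rib_CA.

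The kinases that pair with cyclin K had similar profiles over the libraries, at a Euclidean distance of 0.34 on centred log2 CPM. Such closeness was not particular to them, since CDK13 lay nearer to CCNH (0.29). CDK12 (chromosome 17, 39461511 to 39564907, plus strand) was at 121 and 147 CPM in DMSO and at 90.1 and 68.3 CPM in Rib_CA. Its log2 fold change was -0.76 ± 0.27 (95% interval -1.41 to -0.10; adjusted p = 0.134). Among the 10 it had the smallest p. With 1 library left out the value ran from -1.02 to -0.57, and CDK12 passed without Rib_CA 1 (adjusted p = 0.0341), a fit in which 20.5% of all genes passed. Its adjusted p ranged from 0.0341 to 0.809 over the alternatives, and after the GC and length correction the log2 fold change was -0.17.

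Its paralog CDK13 (chromosome 7, 39949646 to 40099580, plus strand) was at 111 and 126 CPM in DMSO and at 88.8 and 80.8 CPM in Rib_CA. The groups were apart by less than for CDK12, with a log2 fold change of -0.49 ± 0.25 (95% interval -1.07 to 0.10; adjusted p = 0.247). After correction it was 0.15, so its direction depends on that step. The ratio of CDK12 to CDK13 per transcript length was 1.32 and 1.42 in DMSO and 1.23 and 1.03 in Rib_CA. CDK12 thus exceeded CDK13 in every library, by less in Rib_CA, with a difference of -0.28 ± 0.14 (SE) in log2 ratio.

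For this paralog pair, whose levels were lower in both Rib_CA libraries, and for CDK9, whose levels were not, the reference promoters are shown. Each runs from 250 bases before to 50 bases after the RefSeq gene start (GRCh38.p14), printed 5′ to 3′ on the gene's strand, all 3 on the plus strand. They span chr17:39461236-39461535 for CDK12, chr7:39950006-39950305 for CDK13 and chr9:127785784-127786083 for CDK9. GENCODE places the starts of CDK13 and CDK9 earlier, at 39949646 and 127785679, so these windows lie inside the GENCODE limits of both genes. The CDK12 window spans its GENCODE start (39461511), so the windows may not be like regions. Capitals mark matches on either strand to the motifs described after the sequences.
CDK12: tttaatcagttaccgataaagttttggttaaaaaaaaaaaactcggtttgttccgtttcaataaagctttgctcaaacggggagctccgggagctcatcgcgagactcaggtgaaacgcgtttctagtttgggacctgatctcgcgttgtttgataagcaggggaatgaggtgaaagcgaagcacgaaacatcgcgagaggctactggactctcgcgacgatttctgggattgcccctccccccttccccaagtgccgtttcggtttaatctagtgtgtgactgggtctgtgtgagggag
CDK13: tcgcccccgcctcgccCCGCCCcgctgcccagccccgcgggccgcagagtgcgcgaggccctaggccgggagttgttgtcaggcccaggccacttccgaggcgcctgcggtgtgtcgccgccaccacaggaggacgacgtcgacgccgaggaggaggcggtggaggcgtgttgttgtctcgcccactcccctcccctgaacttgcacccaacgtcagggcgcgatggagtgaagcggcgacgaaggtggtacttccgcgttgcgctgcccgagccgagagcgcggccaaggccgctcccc
CDK9: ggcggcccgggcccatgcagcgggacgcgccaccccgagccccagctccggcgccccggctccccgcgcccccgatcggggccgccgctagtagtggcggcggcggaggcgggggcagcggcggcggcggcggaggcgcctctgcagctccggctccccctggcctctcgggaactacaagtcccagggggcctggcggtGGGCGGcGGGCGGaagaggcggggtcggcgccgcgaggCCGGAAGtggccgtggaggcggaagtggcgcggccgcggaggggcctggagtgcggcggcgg
The CDK12 window matched none of the motifs searched and is the least GC-rich of the 10 (49.0%), against 72.7% for CDK13 and 82.0% for CDK9. CDK13 had 1 GC box, and CDK9 had 2 GC boxes and 1 ETS site. Of the 10 gene-start promoters 9 held a GC box, searched as GGGCGG, against 44.95% of the 35116 promoters in the reference table. Those 35116 were not limited to gene starts or to genes tested here. Shares of all promoters, for this motif and those below, thus come from an unlike set. The ETS motif, searched as CCGGAAG, was in 2 of the 10 (10.26% of all). An E-box, searched as CACGTG, was in 3 of the 10 (7.26% of all), and a CCAAT box, searched by those 5 letters, in 4 (34.61% of all). The E2F form TTTCCCGC was in 1, that of CDK19 (1.63% of all). The form TTTGGCGC was in none (0.65% of all). A TATA box, searched as TATAAA, was in none either (11.53% of all). The NRF1 site was in 1, that of CCNT2 (1.24% of all). These matches describe letters of the reference and are not measurements of binding.

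Cyclin K, the shared partner, had the highest single value of the set. CCNK (chromosome 14, 99481169 to 99535044, plus strand) was at 115 and 302 CPM in DMSO and at 128 and 79.5 CPM in Rib_CA. DMSO 2 alone was high, 2.62-fold above DMSO 1, a gap wider than that of 96.5% of the genes tested. The log2 fold change of -1.01 had a 95% interval from -2.17 to 0.16 (adjusted p = 0.230), and without DMSO 2 it was -0.15. CCNK shares 59.5% of its exonic bases with CCDC85C on the opposite strand, and the counts of the pair may be mixed. CCDC85C was at 151, 166, 200 and 120 CPM in DMSO 1, DMSO 2, Rib_CA 1 and Rib_CA 2, highest in Rib_CA 1. Ratios of CDK12 and of CDK13 to CCNK overlapped between groups.

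By a rule of closeness, MDM4, CYP3A5 and ENSG00000249319 were the tested genes outside the gene lists whose profile over the 4 libraries lay nearest to that of CDK12. Their Euclidean distances on the centred log2 CPM scale were 0.03, 0.06 and 0.07. MDM4, which encodes a p53 inhibitor related to MDM2, was at 16.8 and 20.8 CPM in DMSO and at 12.5 and 9.45 CPM in Rib_CA (log2 fold change -0.78; adjusted p = 0.164). The other two lay at or below 1.46 CPM. Over 4 libraries, such closeness is only a description.

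Of the Mediator kinases, CDK8 (chromosome 13, 26254104 to 26405238, plus strand) was at 32.5 and 24.4 CPM in DMSO and at 16.8 and 23.5 CPM in Rib_CA. Its groups were barely apart, with Rib_CA 2 just under DMSO 2. Before TMM scaling CDK8 had 1010 counts in Rib_CA 2 and 804 in DMSO 2, of totals of 37772266 and 37754168. The order of these libraries thus depends on the scaling. CDK8 had a log2 fold change of -0.50 (95% interval -1.26 to 0.26; adjusted p = 0.350), and -0.36 after correction.

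CDK19 (chromosome 6, 110609978 to 110815958, minus strand) was at 40.4 and 16.2 CPM in DMSO and at 12.8 and 22.7 CPM in Rib_CA. DMSO 1 alone was high, 2.49-fold above DMSO 2, and the other 3 libraries overlapped. The log2 fold change of -0.67 had a 95% interval from -1.87 to 0.52 (adjusted p = 0.416) and became 0.12 without DMSO 1.

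CCNC, their cyclin, was at 34.2 and 24.6 CPM in DMSO and at 16.7 and 35.8 CPM in Rib_CA, so that Rib_CA held both the lowest and the highest value. Its log2 fold change was -0.16 (95% interval -1.16 to 0.83; adjusted p = 0.838), and 0.18 after correction. Per transcript length, CDK8 exceeded CDK19 in every library, by 1.64 and 3.07 times in DMSO and 2.69 and 2.11 times in Rib_CA, and the groups overlapped. Ratios of each kinase to CCNC overlapped as well.

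**Figure D3:**
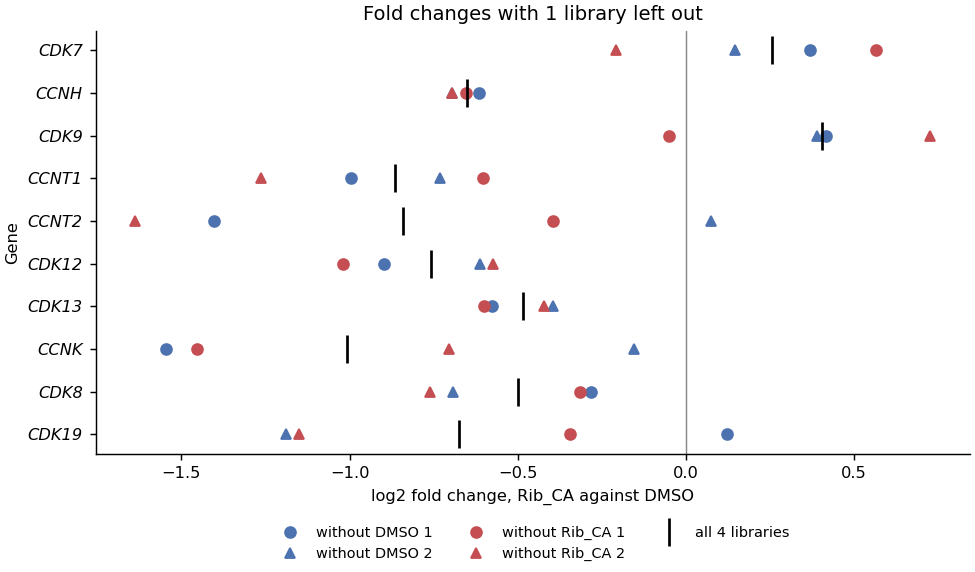
Log2 fold change of Rib_CA against DMSO for the 10 genes with all 4 libraries (black bars) and with 1 library left out (blue without a DMSO library, red without a Rib_CA library; circles replicate 1, triangles replicate 2). CDK7, CDK9, CCNT2 and CDK19 cross 0 on leaving out 1 library, while CCNH moves least, between -0.69 and -0.61.

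In all, 11 ratios between partners or paralogs were compared, and the groups were apart in 4 (CDK7 to CCNH, CDK7 to MNAT1, CDK9 to CCNT1 and CDK12 to CDK13). With 2 libraries against 2, an exact two-sided permutation test cannot give a p below 0.333, which is the value for each of these 4 (0.917 adjusted over the 11). The counts of pairs apart were 9 without DMSO 1, 8 without DMSO 2, 7 without Rib_CA 1 and 6 without Rib_CA 2, since a lone library is more easily apart from the rest.

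**Figure D4:**
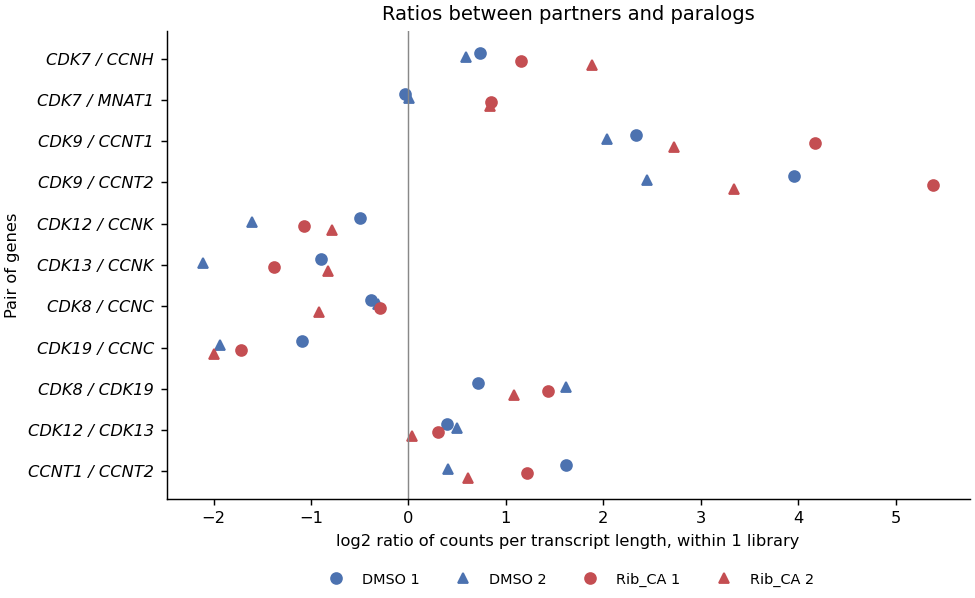
Log2 ratio of counts per transcript length between 2 genes of the same library, 1 point per library, for 11 pairs (blue DMSO, red Rib_CA; circles replicate 1, triangles replicate 2). The CDK7 to MNAT1 ratios form 2 tight pairs near 0 in DMSO and near 0.84 in Rib_CA, while both ratios with CDK9 spread widely within a group.

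Set in order of level per transcript length (CPM per 1000 bases), the DMSO libraries ran from CCNK (37.1 ± 23.4, SD, n = 2) through CDK9 (30.8 ± 0.44), CDK7 (26.6 ± 2.95), CCNH (16.8 ± 0.69), CDK12 (16.1 ± 2.21), CDK13 (11.7 ± 1.03), CDK8 (9.31 ± 1.87), CCNT1 (6.79 ± 0.87) and CDK19 (4.53 ± 2.73) to CCNT2 (3.80 ± 2.53). Neighbours in this order overlapped for CCNK and CDK9, for CCNH and CDK12, for CCNT1 and CDK19, and for CDK19 and CCNT2. The Rib_CA order was CDK9 (40.8 ± 14.4), CDK7 (31.8 ± 12.3), CCNK (18.4 ± 6.11), CCNH (10.7 ± 0.43), CDK12 (9.50 ± 1.85), CDK13 (8.36 ± 0.56), CDK8 (6.59 ± 1.54), CCNT1 (3.72 ± 1.26), CDK19 (2.84 ± 1.12) and CCNT2 (2.12 ± 1.27). There CDK9 overlapped CDK7, CCNH overlapped CDK12, CDK12 overlapped CDK13, CCNT1 overlapped CDK19, and CDK19 overlapped CCNT2. From CCNH down the order was the same in both groups.

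Of 54 other genes of RNA polymerase II control, listed by role, 8 fell and none rose, where 5.11% and 2.01% of all genes did. The lists were chosen with earlier results of these data known, so shares given for them here and below are descriptions and not tests. The median log2 fold change of the 54 was 0.02, near that of all genes. With 1 library left out the number called ran from 1 (without DMSO 1) and 3 (without DMSO 2) to 16 (without Rib_CA 1) and 14 (without Rib_CA 2), where 1.23, 2.91, 20.5 and 19.5% of all genes were called. DESeq2 called 5 higher and 11 lower (19.9% of all genes in either direction). After the GC and length correction none of the 54 passed, as for the whole table, with 17 at an unadjusted p under 0.05.

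In the Mediator kinase module all 5 genes had negative fold changes, against 48.1% of all genes, and 2 fell, against 5.11%. The sign of CCNC in that count turned with the GC and length correction. MED13, the subunit that joins the module to core Mediator, was at 134 and 113 CPM in DMSO and at 44.2 and 38.7 CPM in Rib_CA (2.99-fold lower; adjusted p = 0.0293). MED12L, a paralog of the CDK8 activator MED12, was at 13.96 and 10.2 CPM in DMSO and at 3.29 and 4.13 CPM in Rib_CA (3.25-fold lower; adjusted p = 0.0460). MED12L overlaps IGSF10, on the opposite strand, over 28.8% of its exonic bases. It missed the threshold with the replicate block (adjusted p = 0.0577), in limma-voom (adjusted p = 0.0504) and with total counts alone (adjusted p = 0.0895). After correction their log2 fold changes were -0.56 and -0.85, from -1.58 and -1.70. Neither passed without DMSO 1 or without DMSO 2. MED13L did not pass, at -1.01 ± 0.27 (adjusted p = 0.0720), and MED12 lay at -0.21.

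Around P-TEFb, LARP7 fell, the protein that holds the 7SK RNA on which CDK9 is kept inactive. LARP7 was at 29.99 and 29.7 CPM in DMSO and at 9.11 and 8.48 CPM in Rib_CA, with near-identical replicates (3.39-fold lower; adjusted p = 0.0287). After correction its log2 fold change was -1.33, from -1.76, and its call was lost on leaving out either DMSO library. HEXIM1, the inhibitor that 7SK brings to P-TEFb, was at 253 and 195 CPM in DMSO and at 188 and 180 CPM in Rib_CA (log2 fold change -0.28; 95% interval -0.92 to 0.35; adjusted p = 0.530). Of the 9 genes for recruitment of P-TEFb and its super elongation complex, MLLT3, which encodes a reader of acylated histones, fell from 51.9 and 44.5 to 11.7 and 15.1 CPM (3.60-fold lower; adjusted p = 0.0287). Its log2 fold change was -1.10 after correction, and it lost its call without DMSO 1 and with total counts alone (adjusted p = 0.0504).

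No gene passed among 8 of TFIIH and the CDK-activating kinase, 7 of pausing and elongation, and 6 other kinases and cyclins. The smallest p in each belonged to GTF2H4, NELFE and CCNL2, with log2 fold changes of 0.85, 0.79 and 1.08 (adjusted p = 0.0938, 0.123 and 0.0927). GTF2H4 shares 79.0% of its exonic bases with VARS2 on the same strand, and VARS2 was 2.26-fold higher (adjusted p = 0.0495). GTF2H4 and CCNL2 passed in DESeq2 and without Rib_CA 1, and NELFE without Rib_CA 2. CCNL2 also passed with the replicate numbers crossed. CDK11A and CDK11B are near-identical copies whose reads may be split between them, and lay at -0.22 and -0.02.

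Among 6 phosphatases of the polymerase tail, RPAP2 alone fell, from 59.4 and 65.0 to 18.0 and 18.4 CPM (3.42-fold lower; adjusted p = 0.0285). RPAP2 has a transcript of 16993 bases, and its log2 fold change went from -1.77 to -0.66 with the GC and length correction. Its call was lost on leaving out either DMSO library.

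Of 4 DNA repair genes reported to depend on CDK12, 3 fell (BRCA1, ATR and FANCI), and all 4 had both Rib_CA libraries below both DMSO libraries, where 5.11% and 28.4% of all genes did so. The 4 were listed with earlier results of these data known, so these shares are no test of the list. Whether CDK12 has a part in their levels was not tested. ATR, the replication stress kinase, was at 62.2 and 37.7 CPM in DMSO and at 13.99 and 10.2 CPM in Rib_CA (4.13-fold lower; adjusted p = 0.0301). FANCI, of the Fanconi pathway, was at 95.1 and 62.9 CPM in DMSO and at 27.7 and 30.6 CPM in Rib_CA (2.71-fold lower; adjusted p = 0.0432). With the GC and length correction BRCA1, a recombination repair gene, went from -1.95 to -1.27, ATR from -2.04 to -1.16 and FANCI from -1.44 to -1.02. FANCD2 did not pass (-0.95 ± 0.28; adjusted p = 0.0874). ATR lost its call without DMSO 1. FANCI did not pass without DMSO 1, without DMSO 2 or with total counts alone (adjusted p = 0.0847).

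Of 5 short-lived transcripts reported to drop first when P-TEFb is blocked, none passed in edgeR, with 2 at an unadjusted p under 0.05 (28.4% of all genes). Only IER2 among the 5 had a negative fold change, against 48.1% of all genes. JUNB, an AP-1 gene, had the smallest p, at 33.8 and 56.6 CPM in DMSO and 249.7 and 93.5 CPM in Rib_CA (log2 fold change 1.92; adjusted p = 0.0698). JUNB passed in DESeq2, without Rib_CA 2, with libraries scaled by total counts alone and with the replicate numbers crossed. It shares 14.2% of its exonic bases with HOOK2 on the opposite strand, and reads there may count for either gene.

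**Figure D5:**
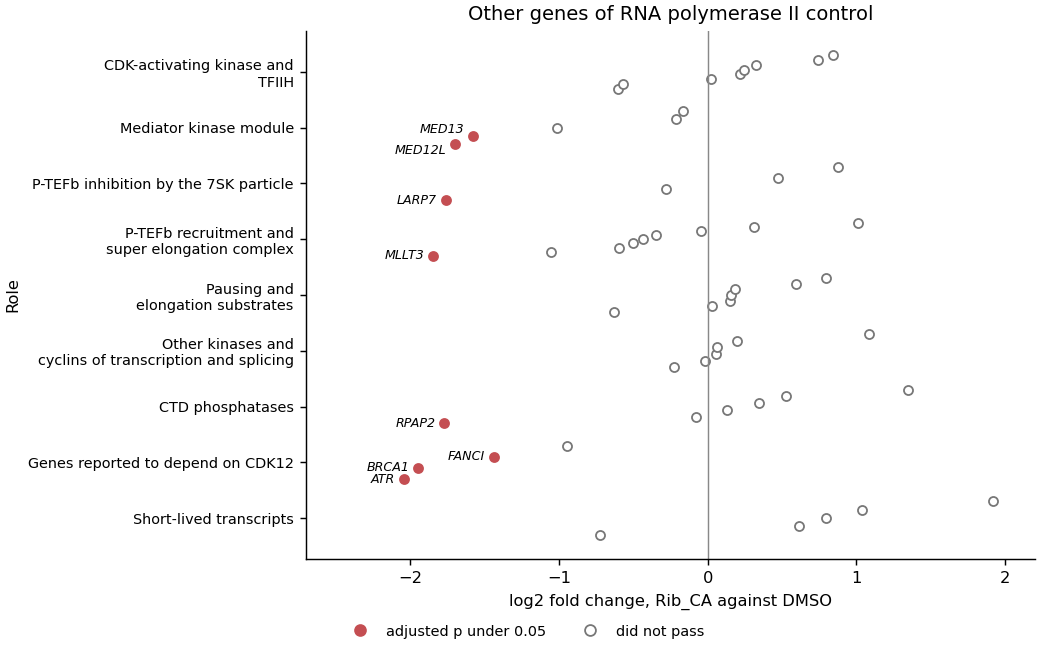
Log2 fold change of Rib_CA against DMSO for 54 other genes of RNA polymerase II control, 1 point per gene, in rows by role. Filled red points passed the adjusted threshold and carry their names: all 8 lie below -1.4, and the short-lived transcripts lie mostly to the right of 0.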

How the data were processed

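Messenger RNA libraries of MDA-MB-231 cells were counted per gene. The deposited table holds raw counts, which the authors did not normalise, in 1 column for each of 4 libraries. GRCm38 and mm10, both mouse builds, are what the submitters' processing notes list, while all row names are human Ensembl IDs, so the build behind the counts is not settled. Aligner, counting tool and strand setting: not given in the sources used here. Between 67.7 and 70.7% of the small values (1 to 10) in a library were even numbers, so both mates of read pairs may have been counted, which understates counting error. The members and gene lists were chosen with earlier results of these data known.

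Of the 20263 rows, 20224 had a symbol and a transcript in GENCODE release 29. edgeR 4.0.16 in R 4.3.3 kept 13667 genes (filterByExpr, minimum count 10, minimum total 15), scaled by TMM (factors 0.872 to 1.14), and compared groups by the quasi-likelihood test (robust, 2 residual degrees of freedom), with Benjamini-Hochberg adjustment over all genes. The test was checked on simulated data. Standard errors are the log2 fold change over the root of F. The p-values and 95% intervals use the test's total degrees of freedom, which add those borrowed across all genes to the 2 residual ones. Levels per length divide CPM by the longest transcript.

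Named genes were the 10 members, HEXIM1, CCNC, MNAT1 and, for each role, up to 3 genes that passed, or the 1 with the smallest p. FANCD2, MED12, MED13L, CDK11A and CDK11B were added after their values were seen. Alternatives were DESeq2 1.42.0, its size factors, total-count scaling, limma-voom (3.58.1), no filter, a filter of 5 CPM in 2 libraries, a replicate block, each library left out, no mitochondrially encoded genes, and smooth terms for composition and transcript size fitted per library with mgcv 1.9.3 (6 basis functions). When 1 library is dropped, its group's remaining library borrows the spread estimated in the other group. The crossed replicate block was chosen after seeing the data. Figures were drawn with matplotlib 3.10.9.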

Additional observations from a re-analysis of the deposited data

How the results depend on the processing

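For the 10 genes, the count that passed stayed at 0 under 14 of 16 alternatives and was 1 without Rib_CA 1 (CDK12) and 1 without Rib_CA 2 (CCNT1), a range of 0 to 1. Their median log2 fold change ran from -0.70 to -0.50 with 1 library left out and was -0.47 with total-count scaling, which moved the median of all genes from 0.03 to 0.23. It was -0.26 after GC correction, -0.19 after GC and length correction and -0.10 with the replicate block added to the latter. With 1 library left out, CDK7 ran from -0.21 to 0.57, CDK9 from -0.050 to 0.73, CCNT2 from -1.64 to 0.074, CDK19 from -1.19 to 0.12 and CCNC from -0.82 to 0.25, each changing sign. CCNH turned to 0.022 and MNAT1 to 0.0013 after GC correction. After GC and length correction, without and with the replicate block, CDK9 turned to -0.013 and -0.035 and CDK13 to 0.15 and 0.16. CCNC was 0.053 with total counts alone, 0.41 after GC correction, and 0.18 after GC and length correction (0.16 with the block). The cause of these changes was not tested. Of the 54 other genes, 16 passed in DESeq2, 1 to 16 with 1 library left out, and 0 after GC correction, after GC and length correction and with the block added to the latter (21, 17 and 12 at an unadjusted p under 0.05). The number of ratios whose groups were apart ran from 6 to 9 with 1 library left out. Deviations of same-numbered libraries from their group means correlated at -0.186, and the labels give only numbers, so the libraries were not taken as pairs. With the replicate block 0 of the 10 and 7 of the 54 passed, and with the numbers crossed, a choice made after seeing the data, 0 and 14. All 10 genes had at least 331 counts in each library. The parts of depth and of spread between libraries in the precision were not separated.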
